A study of Mus musculus with 24 samples.

Results

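The 10 neuropeptide genes followed here in the mouse hippocampus were read by 12 of the 56605 probes on the array. They were Npy, Sst, Vip, Cck, Penk, Pdyn, Tac1, Tac2, Crh and Cort. The genes were chosen by name, as precursors of peptides known from hippocampal neurons, and every non-control probe whose accession maps to one of the symbols was kept. Penk and Tac1 have a second probe each, and the other 8 genes have 1. In this text Cort is the gene for cortistatin, a relative of somatostatin, and not the hormone corticosterone. All 12 probes were well above background in both channels of all 24 arrays, and none was saturated, so no member was lost to a filter on low values.

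The animals were 48 male Swiss-Webster mice of 12 weeks, habituated to individual cages. The treated animals had corticosterone, the main glucocorticoid of rodents, in their drinking water at 100 µg/ml with 0.45% hydroxypropyl-β-cyclodextrin, which dissolves steroids, during the 12 h dark phase when mice are active and drink. Control animals had the same cyclodextrin in water and no hormone. Hippocampi were taken in the first, the fifth or the ninth hour of the following light phase, with 8 control and 8 treated animals per hour, and each array held the RNA of 1 control animal and 1 treated animal without pooling. Each treated group had a control group of brothers, but the labels do not say which animals were brothers, so litter was not a term in any test. Vehicle, single housing and handling were shared by both. The control RNA always carried the dye Cy3 and the treated RNA always Cy5, so treatment and dye cannot be told apart where treated animals are compared with control animals. Intensities are in the scanner's units after the steps given under the processing, and levels of different probes are not compared.

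Neuropeptides are cut from larger precursor proteins in the regulated secretory pathway, stored in dense core granules and released on strong firing, after which they act on G protein-coupled receptors of nearby cells. In the hippocampus most of these precursors are made by GABAergic interneurons. Somatostatin cells of the stratum oriens and hilus inhibit the distal dendrites of principal cells, many of them also make neuropeptide Y or cortistatin, VIP cells mainly inhibit other interneurons, and a class of basket cells makes cholecystokinin. Enkephalin and dynorphin, the products of Penk and Pdyn, are opioid peptides, and dynorphin is typical of the granule cells of the dentate gyrus. Tac1 encodes substance P and neurokinin A, and mouse Tac2 encodes neurokinin B. Corticotropin-releasing hormone, the product of Crh, starts the hormonal stress response from the hypothalamus and is also made by interneurons of the hippocampus. The promoters of several of these genes are classic examples of control by cyclic AMP, through the motif TGACGTCA and its shorter part TGACG.

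Those motifs are shown first, because they are a sequence feature that several members share. Of the 10 genes, 8 have a promoter in the RefSeq table used here (GRCm38.p6), with 9 promoters in all. Penk and Crh have no entry there under these symbols and were not searched. In the 250 bases upstream of the start, TGACG was found on one strand or the other in 5 of the 8 genes, and it was found in 17.8% of all 32851 promoters of the table. The full motif TGACGTCA, which contains TGACG on both strands, was found in Sst only among the 8 genes and in 1.55% of all promoters. The stretches around the motif are given 5′ to 3′ on the strand of the gene, with the motif in capitals (CGTCA is TGACG on the other strand).
Sst, chr16:23890855-23890922, minus strand: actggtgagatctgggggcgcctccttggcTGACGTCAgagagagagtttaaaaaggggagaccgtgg
Vip, chr10:5639109-5639176, plus strand: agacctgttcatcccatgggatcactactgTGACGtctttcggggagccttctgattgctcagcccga
Cck, chr9:121495704-121495771, minus strand: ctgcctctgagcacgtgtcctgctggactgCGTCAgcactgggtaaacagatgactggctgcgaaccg
Cort, chr4:149126764-149126811, minus strand: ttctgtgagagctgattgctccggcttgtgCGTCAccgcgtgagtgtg
Tac1, chr6:7554834-7554901, plus strand: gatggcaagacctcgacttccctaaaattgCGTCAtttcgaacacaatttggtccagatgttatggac
The first base shown lies at -78 from the start in Sst, -109 in Vip, -77 in Cck, -48 in Cort and -227 in Tac1, so all 5 stretches are upstream and outside the transcript. Tac1 has a second match nearer to the start, which is not shown. The palindromic response element of the glucocorticoid receptor (GRE) was not found in these windows of any of the 8 genes and was found in 0.00913% of all promoters. Its shorter part AGAACA (either strand) was found among the 8 in Cort only, against 16.1% of all promoters. The E-box CACGTG, on which clock proteins act, was found in Cck and Tac1, against 6.02% of all promoters. A match of letters is a description of the sequence and no sign that a factor binds there.

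The first comparison asked whether the peptide genes differed between corticosterone-treated and control animals within an hour. Sst and Vip were higher in the treated animals at the fifth hour, by 11.9% and 24.4%. Cck passed the same test at the fifth hour with a log2 difference of -0.10, but it lay above control, at +0.16 and +0.18, under the 2 scalings that leave the ratio within an array untouched, so its direction is not settled. The remaining 7 genes passed the test at no hour. Significance was judged by limma's separate channel test with Benjamini-Hochberg adjustment over all 56605 probes, at an adjusted p under 0.05.

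The members were read against the whole array. The share of probes that stood well above background on an array lay between 60.77% and 67.19% for Cy3 and between 64.01% and 73.45% for Cy5, and 0 spots were saturated. At the first hour 17.5% of all probes passed and 0 of the 10 members did (limma), with 2 members at an unadjusted p under 0.05. For the fifth hour 18.1% of all probes and 3 of the 10 members passed. At the ninth hour 14.0% of all probes and 0 members passed, again with 2 at an unadjusted p under 0.05. The median absolute log2 difference of the 10 main probes was 0.0654, 0.0922 and 0.076 at the 3 hours, and over all probes it was 0.129, 0.128 and 0.117. The members are brighter than most probes. Over the 11406 probes with a mean intensity of at least 1000 the median absolute difference was 0.0883, 0.0912 and 0.0801, and 26.5%, 28.0% and 20.6% of them passed, so the 3 of 10 members at the fifth hour are close to the share of bright probes.

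**Figure D1:**
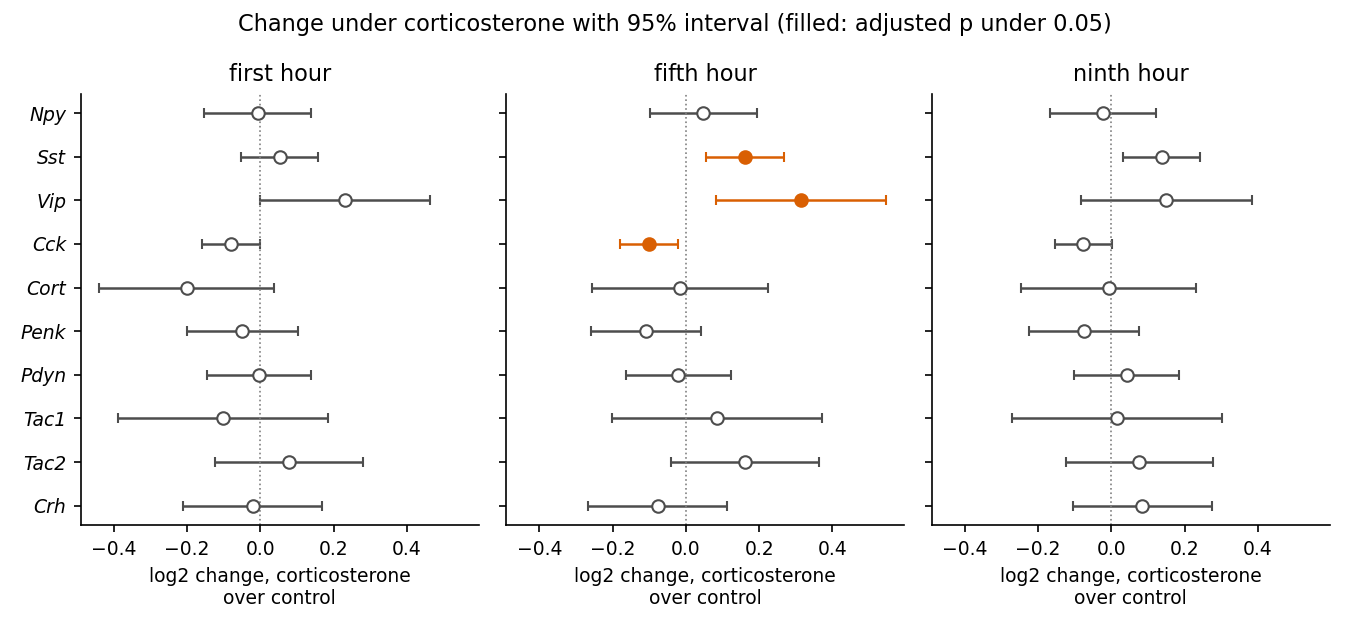
Difference between corticosterone-treated and control animals (x axis, log2) for the 10 neuropeptide genes (y axis, main probes) at the first, the fifth and the ninth hour of the light phase; points are limma estimates from 8 arrays per hour, bars are 95% intervals and filled points have an adjusted p under 0.05. Only Sst, Vip and Cck at the fifth hour are filled, and the sign of Cck turns to +0.16 and +0.18 at that hour under the 2 scalings that keep the ratio within each array.

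Sst, the somatostatin precursor, had normalized intensities in the first hour from 33410 to 47830 in control animals (median 36830) and from 33620 to 46810 in treated animals (median 40650). In the fifth the control animals ran from 32640 to 40190 (median 37080) and the treated animals from 37780 to 44320 (median 41160). In the ninth the control animals ran from 33950 to 43690 (median 36800) and the treated animals from 39000 to 43800 (median 41370). The 2 groups overlapped at every hour, least at the fifth, where 5 of 8 treated animals lay above every control animal and 6 of 8 control animals lay below every treated one. On the array, the treated animal was the higher of the pair on 5, 8 and 6 of 8 arrays at the 3 hours.

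The log2 difference of Sst was 0.05 (SE 0.0526, limma adjusted p = 0.501) at the first hour, 0.16 (SE 0.0526, adjusted p = 0.0166) at the fifth and 0.14 (SE 0.0526, adjusted p = 0.0525) at the ninth. In percent the fifth-hour difference was 11.9, with a 95% interval from 3.96 to 20.4, and that of the ninth hour was 9.99, with an interval from 2.2 to 18.4. The fifth and ninth hours thus gave nearly the same size on either side of the threshold. The ninth-hour difference passed when the 2 animals of an array were taken as a pair (log ratios per array, adjusted p = 0.0369), in a separate fit for each hour (0.0356), with variances that follow intensity (0.0462), with the scanner's processed signals (0.0238), with the Aquantile scaling described below for Cck (0.0156) and with the deposited ratios (0.011). In all, the ninth-hour difference passed in 7 of 16 alternatives (another setting or a slide left out) and in 6 of 24 fits without 1 array. Over the 16 alternatives its log2 size ran from 0.0649 to 0.171 and its limma adjusted p from 0.011 to 0.669. Its means within the 3 slides were 0.21, 0.085 and 0.0449. Within the 3 slides the mean difference at the fifth hour was 0.222, 0.177 and 0.107, higher in treated animals on each. The call held without slide 3 and without any single array but fifth-hour replicate 1. In the fits with fewer arrays that lost it, the log2 difference was 0.142 without slide 1 (adjusted p = 0.0989), 0.153 without slide 2 (0.144) and 0.146 without fifth-hour replicate 1 (0.0523), against 0.162 with all arrays. Among 1049 probes of like intensity, 62.9%, 81.3% and 83.9% had a lower difference than Sst at the 3 hours.

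Vip encodes vasoactive intestinal peptide, the product of interneurons that target other interneurons. In the first hour its intensity ran from 625 to 1058 in control animals (median 888.9) and from 774.8 to 1305 in treated animals (median 989.1). Fifth-hour values were 561.3 to 975.3 (median 729) in control animals and 746.7 to 1429 (median 909.9) in treated animals. At the ninth hour they were 567.4 to 1106 (median 899.1) and 781.7 to 1103 (median 936.5). The groups overlapped at every hour, with 4 of 8 treated animals above every control animal at the first and at the fifth hour and 0 of 8 at the ninth, and the treated animal was the higher on 7, 7 and 6 of 8 arrays.

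The log2 difference of Vip was 0.23 (SE 0.115, limma adjusted p = 0.146) at the first hour, 0.31 (SE 0.115, adjusted p = 0.0411) at the fifth and 0.15 (SE 0.115, adjusted p = 0.406) at the ninth. The 95% interval in percent was -0.123 to 37.8 at the first hour, 5.89 to 46.1 at the fifth and -5.52 to 30.4 at the ninth. All 3 estimates had the same sign, and the intervals overlapped. The fifth-hour call was close to the threshold. With all arrays kept, the adjusted p was 0.051 with offset 0 for p-values, 0.0522 with the scanner's processed signals and 0.072 in a separate fit for each hour. It was 0.193, 0.0608 and 0.181 without slide 1, 2 or 3, and it was 0.0686 to 0.109 without any one of fifth-hour replicates 1, 2, 4, 6 and 8. The direction held in all of these fits, with log2 differences from 0.227 to 0.399 over all alternatives.

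Cck, the cholecystokinin precursor, is made by basket cells and also by principal cells of the hippocampus. Its probe was among the brightest of the array. With the quantile scaling, its intensity at the first hour ran from 81630 to 99210 in control animals (median 86420) and from 78730 to 91920 in treated animals (median 81030). At the fifth hour the values were 80650 to 101200 (median 89790) and 80940 to 89250 (median 84030), and at the ninth 84920 to 96060 (median 89690) and 81420 to 91950 (median 85770). The treated animal was the lower on 7, 7 and 8 of 8 arrays, although the ranges of the groups overlapped throughout.

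With that scaling the log2 difference of Cck was -0.08 (limma adjusted p = 0.116), -0.10 (SE 0.0391, adjusted p = 0.0424) and -0.08 (adjusted p = 0.144) at the 3 hours. The fifth-hour call was lost with log ratios per array (adjusted p = 0.0553), with outlier spots kept (0.0523), with offset 0 for p-values (0.0707) and in a separate fit for each hour (0.113). It was also lost without slide 2 (0.112), without slide 3 (-0.0326, adjusted p = 0.714) and without any one of fifth-hour replicates 2, 4, 5, 6, 7 and 8 (0.0568 to 0.211). Quantile scaling of the average intensity of the 2 channels (Aquantile), which leaves the ratio of each array as it is, gave 0.18, 0.16 and 0.17 in its place, with adjusted p-values of 0.000451, 0.000606 and 0.000902, and the treated animal was then the higher on 8, 7 and 8 of 8 arrays. The deposited ratio table holds no separate channels. Fitted with limma as ratios per array, it gave 0.18 at each hour (adjusted p = 0.00229, 0.00268 and 0.00362). The scanner's processed signals, quantile-scaled, gave the opposite direction and passed the test at the first hour (-0.0941, adjusted p = 0.0277) and the ninth (-0.0908, adjusted p = 0.0427). The 299 probes of like intensity moved in the same way: their median difference went from 0.00547, 0.0411 and 0.0172 with the main scaling to 0.157, 0.187 and 0.166 with Aquantile. Relative to those probes Cck stood above 27.4%, 23.7% and 26.8% of them in the first case and above 56.5%, 45.2% and 52.5% in the second. Sst and Vip did not share this dependence: Sst gave 0.182 and Vip 0.315 at the fifth hour with Aquantile, against 0.162 and 0.315 with quantile scaling.

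**Figure D2:**
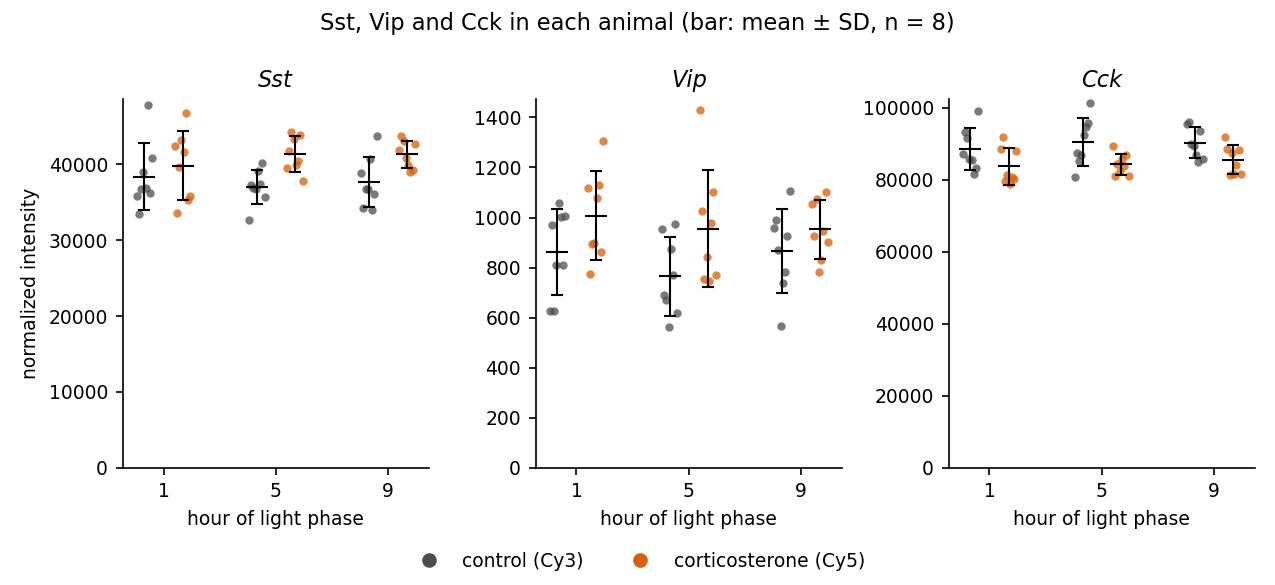
Normalized intensity (y axis, quantile scaling, linear from 0) of Sst, Vip and Cck in each of 48 animals by hour of the light phase (x axis), with bars for mean ± SD of 8 animals. Sst and Vip lie higher in the treated animals at the fifth hour with overlapping ranges, and Cck lies lower at every hour in this scaling but higher under the 2 scalings that keep the ratio within each array, by 0.16 to 0.18 on the log2 scale.

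Npy and Cort are, like Sst, products of dendrite-targeting interneurons. Npy, the neuropeptide Y precursor, had medians of 2127 and 2228 in control and treated animals at the first hour, 2269 and 2337 at the fifth and 2197 and 2155 at the ninth, with all animals between 1693 and 2773. Its log2 difference was -0.01, 0.05 and -0.02 (limma adjusted p = 0.957, 0.687 and 0.869), and the 95% interval of the fifth hour ran from -6.54% to 14.3%. Npy thus gave no detectable difference, and the estimate found for Vip, 24.4%, lies outside its interval at each hour.

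Cort had an intensity at the first hour of 868 to 1376 in control animals (median 1109) and of 725.5 to 1344 in treated animals (median 1037). At the fifth hour the ranges were 753.6 to 1603 (median 1226) and 825.4 to 1616 (median 1199), and at the ninth they were 907.4 to 1646 (median 1271) and 1075 to 1430 (median 1250). The log2 difference was -0.20 (SE 0.119, limma adjusted p = 0.232) at the first hour, with a 95% interval from -26.3% to 2.67%. It was -0.02 and -0.01 at the later hours (adjusted p = 0.941 and 0.974). The treated animal was the lower on 5 of 8 arrays at the first hour and on 4 and 3 of 8 at the later hours.

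Of the opioid precursors, Penk had medians of 6703 and 6523 in control and treated animals at the first hour, 7018 and 6434 at the fifth and 6673 and 6527 at the ninth, within a range of 5210 to 8551. The log2 difference was -0.05, -0.11 and -0.08 (limma adjusted p = 0.685, 0.304 and 0.532), and the fifth-hour interval ran from -16.5% to 2.94%, with the treated animal lower on 7 of 8 arrays. The second probe of Penk, which is much dimmer, gave 0.05, -0.02 and 0.00 (adjusted p = 0.744, 0.912 and 0.989). Pdyn, the dynorphin precursor, had medians of 2012 and 2173, 2079 and 2049, and 1899 and 1886 in control and treated animals at the 3 hours. Its log2 difference was 0.00, -0.02 and 0.04 (adjusted p = 0.979, 0.869 and 0.741), with intervals from -10.7% to 13.7% over the 3 hours. Neither opioid gene differed beyond the spread between animals.

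Tac1, the substance P precursor, varied most among animals. Its main probe ran from 858.5 to 1730 at the first hour, from 617 to 1849 at the fifth and from 986.7 to 2211 at the ninth over both groups. The log2 difference was -0.10, 0.08 and 0.01 (limma adjusted p = 0.659, 0.717 and 0.965), with intervals as wide as -23.6% to 13.6% at the first hour and -13.0% to 29.3% at the fifth. The second probe of Tac1 had control values of 206.9 to 330.6 (median 246.8) and treated values of 141 to 294.7 (median 212.8) at the first hour. Its log2 difference there was -0.32 (SE 0.13, adjusted p = 0.0753), with an interval from -33.2% to -4.11%, and the treated animal was the lower on 7 of 8 arrays. At the later hours this probe gave -0.11 and -0.10. The estimates of the Tac1 probes therefore agreed in sign at the first hour only, and neither passed the test. The median ratios over the arrays were above 0 for both at the later hours. They were 0.154 for the main and 0.00545 for the second probe at the fifth hour, and 0.16 and 0.0171 at the ninth. Ninth-hour replicate 8 had the lowest ratio of its hour on both probes, at -0.8493 and -0.9443.

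Tac2 had medians of 1679 and 1590 in control and treated animals at the first hour, 1480 and 1675 at the fifth and 1482 and 1557 at the ninth. Its log2 difference was 0.08, 0.16 and 0.08 (limma adjusted p = 0.629, 0.255 and 0.652), and the fifth-hour interval ran from -2.71% to 28.6%. Tac2 therefore had the same estimate as Sst at the fifth hour, 0.16, with an SE of 0.0999 against 0.0526.

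Crh is the gene nearest to the hormone given, since glucocorticoids act back on it in the hypothalamus. In the hippocampus its intensity was low, from 164.2 to 316.2 over all 48 animals. The medians were 229.8 and 209.2 in control and treated animals at the first hour, 240.9 and 231.3 at the fifth and 216 and 230.1 at the ninth. The log2 difference was -0.02, -0.08 and 0.08 (limma adjusted p = 0.916, 0.608 and 0.596), with intervals of -13.6% to 12.5%, -16.9% to 8.12% and -7.03% to 20.9%. The treated animal was the higher on 4, 5 and 7 of 8 arrays, and none of these values passed the test.

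**Figure D3:**
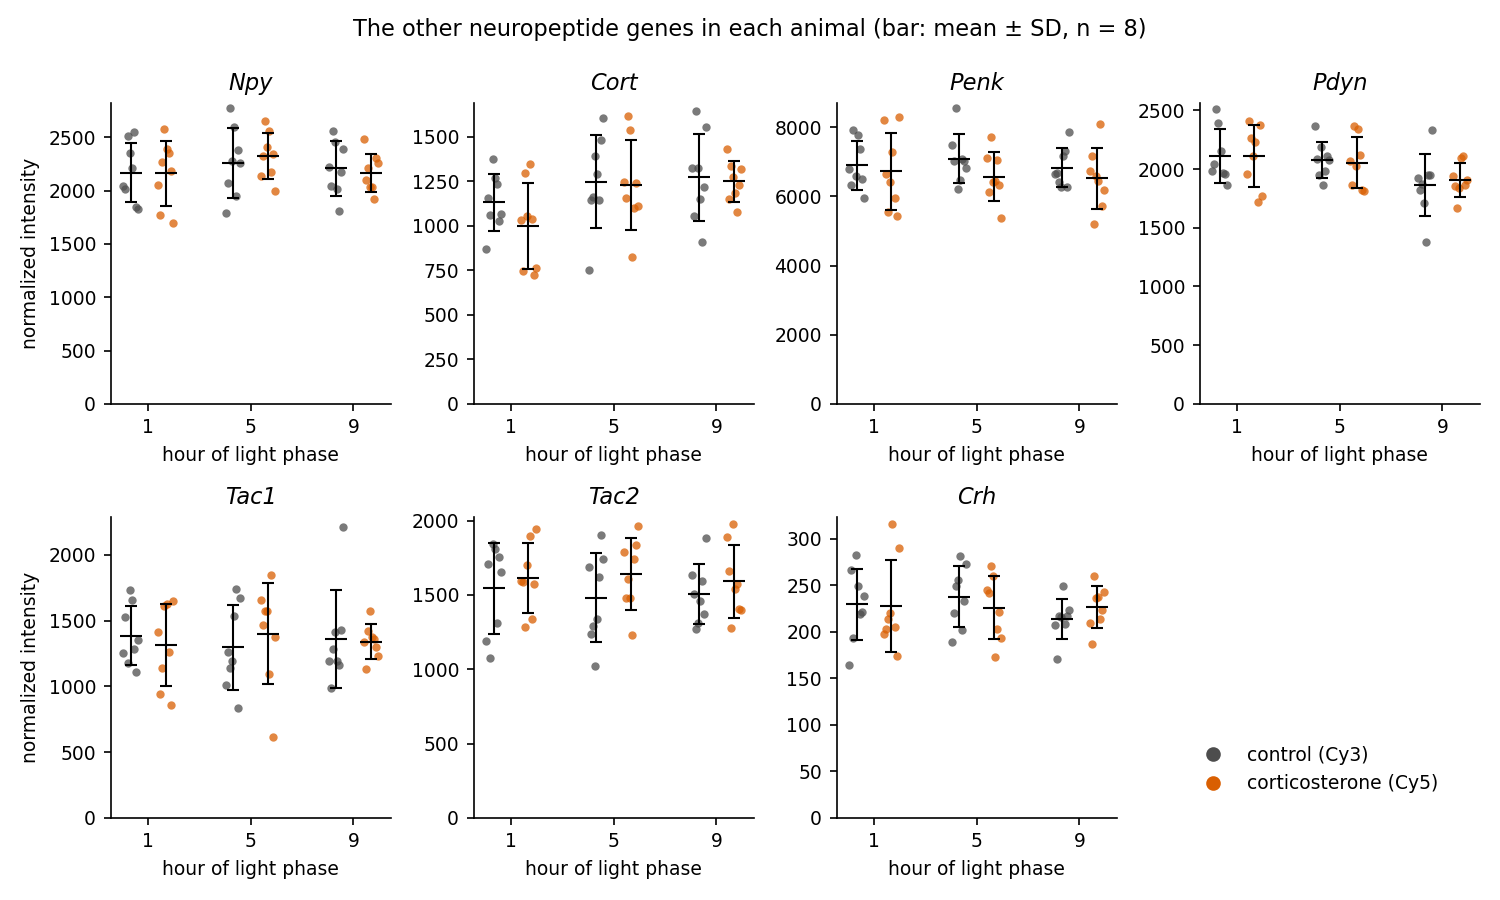
Normalized intensity (y axis, linear from 0) of the main probes of Npy, Cort, Penk, Pdyn, Tac1, Tac2 and Crh in each of 48 animals by hour of the light phase (x axis), with bars for mean ± SD of 8 animals per group. The groups overlap at every hour, and the single control animal of Tac1 at 2211 in the ninth hour and that of Cort at 753.6 in the fifth hour stand apart from the rest of their groups.

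Since RNA was taken from whole hippocampi, fewer cells of a type and less RNA per cell cannot be told apart in any of these values. Markers of GABAergic cells were therefore set beside Sst and Vip. Of 15 measured markers, 1 was higher and 0 lower in treated animals at the first hour, 7 were higher and 0 lower at the fifth and 4 were higher and 0 lower at the ninth, with median log2 differences of 0.0722, 0.171 and 0.0995. These are 6.67%, 46.7% and 26.7% of the list, beside 17.5%, 18.1% and 14.0% of all probes. Among probes with a mean intensity of at least 1000 the shares were 26.5%, 28.0% and 20.6%. The first-hour call was Erbb4 (limma adjusted p = 0.019), whose probe was well above background in 2 of 48 channels, so that its difference, 0.467 here and 0.135 in the deposited ratio table, is not a measured size. Reln, a secreted protein of Cajal-Retzius cells and interneurons, was 0.28 higher at the fifth hour (limma adjusted p = 0.000139), Gad2, which makes GABA, 0.21 (0.000159), Slc32a1, the vesicular GABA transporter, 0.24 (0.00135) and Nxph1 0.17 (0.0143), and their direction held under all 3 scalings. Gad1, Pvalb, Calb2, Nos1, Dlx1, Dlx5, Adarb2 and Erbb4 were not called at that hour. The summed intensity of the 15 markers ran from 69830 to 79220 in control animals and from 79940 to 88360 in treated animals at the fifth hour, and from 73470 to 81540 and from 82370 to 87400 at the ninth, so the groups did not overlap at either hour. At the first hour, at 72580 to 78260 and 72330 to 88910, they did. This sum is carried by its brightest probes, those of Lhx6, Slc32a1 and Gad1, and the Lhx6 probe needs the remark given below. Without Lhx6, a sum added after the first was seen, the ranges overlapped at every hour, at 53460 to 64360 in control and 57630 to 67720 in treated animals at the fifth and 55280 to 62080 and 61900 to 67600 at the ninth. The part of these markers in the values of Sst and Vip was not tested.

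Markers of excitatory neurons, which are the bulk of hippocampal neurons, were read in the same way. All 8 were well above background in all 48 channels. At the first hour Dsp was called higher and Grik4 lower, at the fifth 0 of 8 passed, and at the ninth C1ql2 was called higher, so that 2, 0 and 1 of the 8 were called beside 17.5%, 18.1% and 14.0% of all probes. The summed intensity of the list overlapped between control (35800 to 40900) and treated animals (36150 to 42140) at the fifth hour. Of the neighbouring tissues a dissection could include, the choroid plexus markers passed 0 of 5 times at each hour, with its defining channel subunit Kcne2 well above background in 0 of 48 channels. Among 6 striatal markers Ppp1r1b was higher at every hour (0.35, 0.24 and 0.26) and the other 5 were not called, with Drd2 above background in 9 of 48 channels. Of 6 hypothalamic markers Agrp was called higher at the first and the ninth hour and Oxt and Avp at the fifth. These are 16.7%, 33.3% and 16.7% of that list, beside the shares of all probes given above. The differences were 0.373 and 0.394 for Agrp, 0.338 for Avp and 0.258 for Oxt. In the deposited ratio table they were 0.161, 0.168, 0.156 and 0.158. Tcf7l2, of 2 thalamic markers, was called higher at the first hour. None of the 4 markers of the ventral or the 2 of the dorsal pole of the hippocampus was called at any hour.

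The receptors and the processing machinery of these peptides were then examined. Of 21 genes for receptors and the CRH-binding protein, 1 was higher and 4 lower at the first hour, 2 higher and 3 lower at the fifth and 3 higher and 0 lower at the ninth, which is 23.8%, 23.8% and 14.3% of the list beside 17.5%, 18.1% and 14.0% of all probes. The somatostatin receptors included both signs: Sstr1 was lower at the first and the fifth hour (log2 -0.43, limma adjusted p = 0.00119, and -0.27, adjusted p = 0.0405), whereas Sstr2 was higher at the first and the ninth (0.34, adjusted p = 0.0278, and 0.44, adjusted p = 0.00327) and Sstr4 at the ninth (0.26, adjusted p = 0.0274). Npy2r, the presynaptic receptor of neuropeptide Y, was lower at the first hour (-0.33, adjusted p = 0.000618), as were the neurokinin B receptor Tacr3 (-0.58, adjusted p = 0.02) and the CRH receptor Crhr1 (-0.16, adjusted p = 0.0422). At the fifth hour the VIP receptor Vipr2 was lower (-0.47, adjusted p = 0.0379), and at the ninth the cholecystokinin receptor Cckbr was higher (0.24, adjusted p = 0.0399). Of these differences, 3 were smaller by over 1.5 times in the deposited ratio table, with the same sign: -0.221 for Vipr2 at the fifth hour, whose probe had a mean intensity of 52.99, and -0.361 for Tacr3 and 0.219 for Sstr2 at the first. The deposited ratios lie closest to ratios with offset 50, whereas the differences printed here use offset 0, so these sizes are not like for like.

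Some of the fifth-hour calls rest on probes that need a remark. The probe of Cckar passed as lower but was well above background in 0 of 48 channels. The probes of Oprm1 and Tacr2, called higher at 0.24 and 0.23, and that of Lhx6 among the GABAergic markers, called higher at 0.24, followed each other over the 24 arrays with r of 0.972 to 0.983, so these 3 calls are not independent.

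Of 14 genes that make and store peptides, 1 was higher and 1 lower at the first hour, 2 and 2 at the fifth and 1 and 1 at the ninth, which is 14.3%, 28.6% and 14.3% of the list beside 17.5%, 18.1% and 14.0% of all probes. Pcsk1n, the inhibitor of prohormone convertase 1, was higher at all 3 hours (0.18, 0.19 and 0.18; limma adjusted p = 0.0154, 0.0141 and 0.0189). Chromogranin A, Chga, was lower at the fifth and the ninth hour (-0.15 and -0.13; adjusted p = 0.00941 and 0.025) and secretogranin II, Scg2, at the first (-0.20; adjusted p = 0.00156), while Vgf was higher at the fifth (0.14; adjusted p = 0.0257). Carboxypeptidase E, Cpe, passed as lower at the fifth hour (-0.25) but was 0.118 and 0.141 above control with Aquantile and in the deposited ratio table, so its direction, like that of Cck, is not settled.

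Among 10 other neuropeptide genes, 1 was higher and 2 lower at the first hour, 2 higher and 0 lower at the fifth, and 0 passed at the ninth, which makes 3, 2 and 0 of the 10 beside the same shares of all probes. Nmb, the neuromedin B precursor, was higher at the first and the fifth hour (0.22 and 0.27; limma adjusted p = 0.00307 and 0.000229), and Pnoc, the nociceptin precursor, at the fifth (0.18; adjusted p = 0.0166). Adcyap1, the PACAP precursor, and Grp, the precursor of gastrin-releasing peptide, were lower at the first hour (-0.40 and -0.42; adjusted p = 0.0303 and 0.0381). Genes known to be induced through the glucocorticoid receptor were higher in 5 of 5 cases at the first hour, beside 17.5% of all probes called. Sgk1 was at 0.71, Tsc22d3 at 0.93 and Fkbp5 at 0.60. The list was chosen with earlier results of these data known, so it is no independent check that the hormone reached the tissue. At the ninth hour 1 of the 5 was higher and 2 were lower, beside 14.0% of all probes called. Sult1a1 lay 1.68 above control animals (limma adjusted p = 1.93e-16), and Tsc22d3 and Fkbp5 lay below them (-0.58 and -0.28, adjusted p = 3.28e-05 and 0.0136). Activity-induced genes are a common companion of peptide release. Of 8 such genes, 2 were higher at the first hour, 1 at the fifth and 3 at the ninth, and 0 were lower. These counts stand beside 17.5%, 18.1% and 14.0% of all probes called at the 3 hours. Junb was called at each hour, at 0.38, 0.41 and 0.29. No member was called at the first or at the ninth hour.

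The second question was whether the peptide genes change over the resting phase. These comparisons stay within a dye, so a constant difference between dyes does not enter them. In control animals 0 of the 10 members passed from the first to the ninth hour, beside 0.537% of all probes, with 1 member at an unadjusted p under 0.05 (limma). From the first to the fifth hour 0 passed beside 0.0053% of probes, with 0 at an unadjusted p under 0.05, and from the fifth to the ninth 0 passed beside 0.0336%, with 1. In treated animals 0 passed in each of these comparisons, beside 4.02%, 0.546% and 0.661% of all probes, with 1, 1 and 0 members at an unadjusted p under 0.05. The smallest adjusted p of a member was 0.157, for Cort.

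Cort had the highest estimate of any member over time. In treated animals its median was 1037 at the first hour, 1199 at the fifth and 1250 at the ninth, and the log2 difference of the ninth hour minus the first was 0.35 (SE 0.139, limma adjusted p = 0.157), or 27.6% with a 95% interval from 5.16 to 54.9. In control animals the medians were 1109, 1226 and 1271, with a log2 difference of 0.16 (adjusted p = 0.752). Within the slides the ninth hour minus the first was 0.555, -0.117 and 0.614 in treated animals and 0.4, -0.264 and 0.315 in control animals, so slide 2 had the opposite sign to slides 1 and 3 in both groups. Without slide 2 the treated difference passed the test.

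Pdyn was the member with an unadjusted p under 0.05 in control animals. Its median there was 2012 at the first hour, 2079 at the fifth and 1899 at the ninth. The log2 difference of the ninth hour minus the first was -0.18 (SE 0.083, limma adjusted p = 0.41), with a 95% interval from -21.5% to -1.0%, and in treated animals it was -0.14 (adjusted p = 0.465). The slides gave -0.136, -0.517 and 0.144 in control animals, so again they did not share a sign. Apart from Pdyn and Cort, the members had absolute log2 differences of at most 0.0908 from the first to the ninth hour in control animals.

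The third question was whether the difference between treated and control animals itself changed between hours. For 0 of the 10 members did it pass the test from the first to the ninth hour, the first to the fifth or the fifth to the ninth, beside 0.827%, 0.0389% and 0.083% of all probes, and 0 had an unadjusted p under 0.05 (limma). For Sst the change from the first to the fifth hour was 0.11 (SE 0.0744, adjusted p = 1.0), with an interval from -2.75% to 19.7%. For Vip the effect at the ninth hour minus that at the first was -0.08 (SE 0.163, adjusted p = 1.0), with an interval from -24.7% to 18.8%. In the main test Sst and Vip passed at the fifth hour, and a difference of their effect between hours was not detected. Over time, in control animals, 0 of the 21 receptor and binding protein genes, 14 processing genes, 10 other neuropeptides and 15 GABAergic markers passed from the first to the ninth hour, and in treated animals Sstr3 (0.38, limma adjusted p = 0.0238), Scg2 (0.22, adjusted p = 0.00982) and Nxph1 (0.23, adjusted p = 0.013) were higher at the ninth hour.

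The members differed among themselves in how much animals of the same group varied. The standard deviation within a group, on the log2 scale, was 0.345 for Tac1, 0.281 for Vip, 0.279 for Cort and 0.245 for Tac2. It was 0.219 for Crh, 0.176 for Npy, 0.17 for Penk and 0.157 for Pdyn, and it was lowest for Sst (0.12) and Cck (0.0805). Probes of like intensity had median values between 0.0998 and 0.198. Tac1 lay above 93.3% of its like-intensity probes, Cort above 86.5%, Vip above 85.7% and Tac2 above 84.3%, whereas Cck lay above 24.4%. The SE of the fifth-hour difference was 0.0391 for Cck, 0.0526 for Sst, 0.0999 for Tac2 and 0.142 for Tac1.

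**Figure D4:**
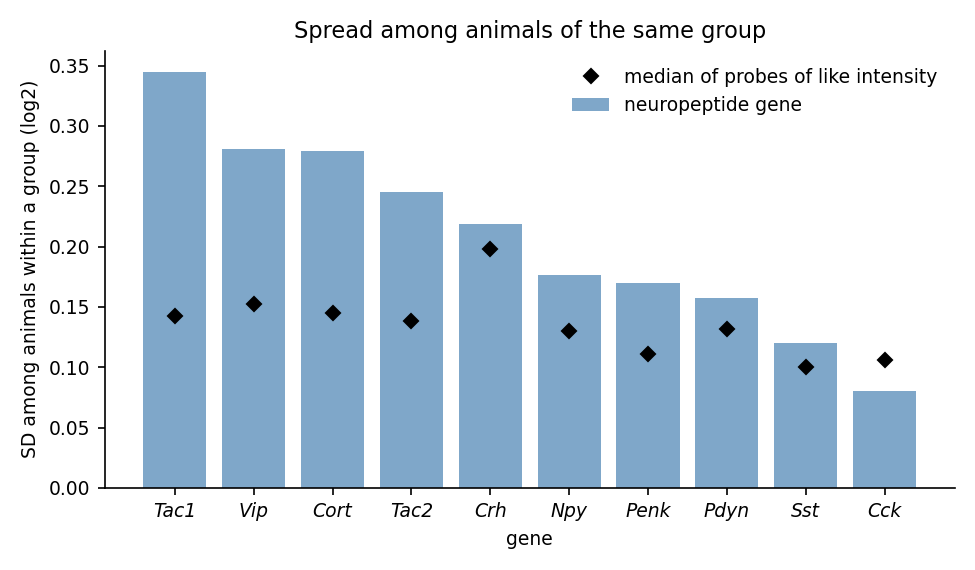
Standard deviation among animals of the same group (y axis, log2) for the main probe of each neuropeptide gene (bars) and the median of the same quantity over all probes of like intensity (diamonds). Tac1, Vip, Cort and Tac2 stand well above their diamonds, at 0.345 to 0.245, and Cck at 0.0805 is the one gene below its diamond.

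The genes with the largest spread also varied together from array to array. The log2 ratio of treated over control animal was taken on each of the 24 arrays as its deviation from the mean of its hour, and the 45 pairs of main probes were correlated. The genes of a pair share the array, the labelling and the hybridisation, and the ratios contain both animals. Of the 45 pairs 40 had a positive r, with a median of 0.267, and 9 had an adjusted p under 0.05 (two-sided permutation test of Pearson's r with 100000 draws, Benjamini-Hochberg over the 45 pairs), of which 6 also passed by Spearman's rho. The draws exchanged arrays within an hour and across slides, so these p-values take no account of differences between slides. Pairs of other probes were not counted in this way, so the counts are not shown to be particular to the peptide genes. No member pair was called negative, the lowest r being -0.348 for Pdyn and Crh (adjusted p = 0.22).

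Tac1, Crh, Cort, Vip and Tac2 formed most of the called pairs. Cort and Crh had r = 0.725 (permutation adjusted p = 0.00945) and rho = 0.615 (0.0493), and r was 0.762, 0.917 and 0.46 within the 3 slides. Cort and Tac1 had r = 0.715 (0.00375) and rho = 0.689 (0.02), with 0.84, 0.822 and 0.27 within slides. Tac1 and Crh had r = 0.648 (0.00396) and rho = 0.637 (0.0234), with 0.915, 0.741 and 0.387. These 3 pairs were positive within every slide, least on slide 3.

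Vip and Tac2 had r = 0.72 (permutation adjusted p = 0.00375) and rho = 0.623 (0.0234), with 0.719 and 0.957 within slides 2 and 3 and a positive value within slide 1. Tac1 and Tac2 had r = 0.673 (0.00698) and rho = 0.63 (0.0234), with 0.281, 0.726 and 0.872. Sst and Cort, whose peptides share receptors, had r = 0.628 (0.00396) and rho = 0.663 (0.02), with 0.533, 0.596 and 0.368. Vip and Tac1 had r = 0.698 (0.00375) and rho = 0.552 (0.0507), Vip and Crh r = 0.576 (0.0362) and rho = 0.496 (0.099), and Vip and Cort r = 0.544 (0.0483) and rho = 0.393 (0.22), so these 3 did not pass by rho. Within slide 3, r was 0.847, 0.169 and 0.163 for them. Without the 2 arrays farthest from the median of the first gene of each pair, r was 0.59 for Cort and Crh, 0.687 for Vip and Tac2, 0.604 for Cort and Tac1, 0.661 for Vip and Tac1, 0.537 for Tac1 and Tac2, 0.744 for Tac1 and Crh, 0.654 for Sst and Cort, 0.483 for Vip and Crh and 0.427 for Vip and Cort. Within a single channel the values were mostly lower, for example 0.636 in control and 0.552 in treated animals for Cort and Crh, but 0.0499 and 0.176 for Vip and Tac1.

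The ventral and the dorsal poles of the hippocampus differ in cell types, and a dissection can take more of the one or the other, so pole markers were set beside these pairs. Trhr, a ventral marker, had r = 0.812 with Crh, 0.677 with Vip, 0.667 with Tac1 and 0.621 with Cort over the 24 arrays. The median r over the 4 ventral markers was 0.69 for Crh, 0.627 for Cort, 0.619 for Tac1, 0.577 for Vip, 0.42 for Tac2 and 0.398 for Sst. Pdyn was negative with all 4, at -0.338 to -0.474, and had r = 0.575 with Lct and 0.242 with Wfs1, the 2 dorsal markers. For the other genes the dorsal markers did not share a sign. Lct was negative with Vip (-0.493), Crh (-0.452), Tac1 (-0.343), Cort (-0.224) and Tac2 (-0.0106). Wfs1 was positive with Tac1 (0.328), Tac2 (0.233), Crh (0.081) and Vip (0.0214) and had -0.0191 with Cort. The summed intensity of the ventral markers ran from 6508 to 16320 over the 48 animals, and in each hour the ranges of the groups overlapped. The ventral markers thus moved with several of the peptide genes from array to array. The part of the pole markers in the correlations was not tested.

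**Figure D5:**
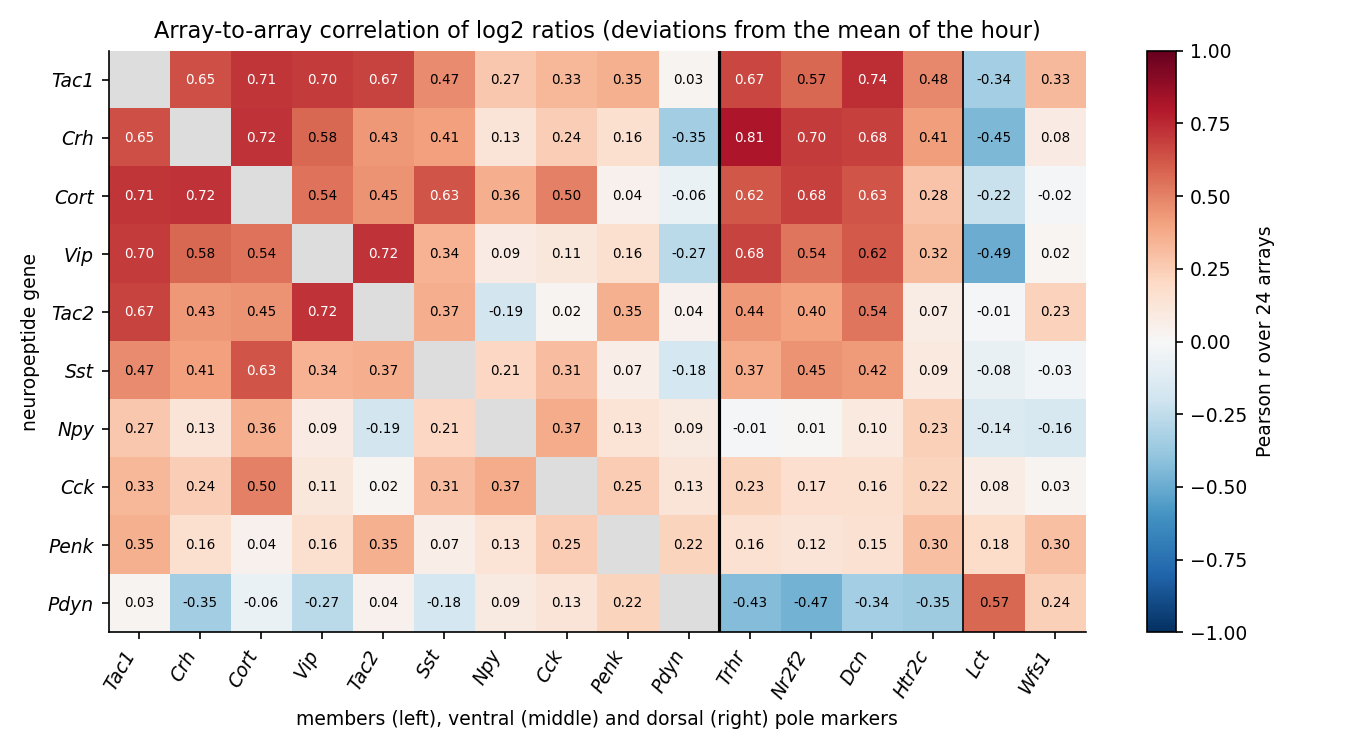
Pearson's r over 24 arrays between the log2 ratios (deviations from the mean of the hour) of the 10 neuropeptide genes (rows and left block of columns) and between them and 4 ventral and 2 dorsal pole markers (right blocks). Tac1, Crh, Cort, Vip and Tac2 form a block of positive values up to 0.725 and go with Trhr, Nr2f2 and Dcn. Their r with the ventral marker Htr2c is lower, from 0.0714 for Tac2 to 0.484 for Tac1. Of the dorsal markers, Lct is negative with these genes, whereas Wfs1 is positive with Tac1 (0.328) and Tac2 (0.233). Pdyn is negative with the ventral markers.

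The probes whose array-to-array pattern was most like that of a member were sought among 22419 probes (22418 for Penk and Tac1) of other named genes with a mean intensity of at least 50. For Vip the closest were Cntn6 (r = 0.894), Apoc3 (0.864) and Tsks (0.856), and for Tac1 they were Nbdy (0.859), Rrm2 (0.824) and Lrrtm3 (0.816). Crh was closest to Coch (0.843), Rfxank (0.813) and Trhr (0.812), and Cort to Polr2m (0.832), Mmab (0.757) and Creg1 (0.732). Pdyn was closest to Prox1 (0.837), Bambi (0.815) and Sema5a (0.782), of which Prox1 is a marker of dentate granule cells. The brighter Prox1 probe, used in the marker list, had r = 0.516 with Pdyn, and the granule cell marker C1ql2 had -0.0231. Tac2 was closest to Eogt (0.836), Clcc1 (0.831) and Elapor2 (0.824), and Penk to Pold2 (0.784), Trabd2b (0.747) and 6330409D20Rik (0.728). Npy was closest to LOC108167387 (0.821), Tfip11 (0.732) and Camk1d (0.723), Sst to Camk1g (0.738), Nap1l5 (0.714) and Atp5g2 (0.711), and Cck to Fbxo36 (0.741), Ndufa11 (0.662) and Nmral1 (0.628). These are the 3 highest values per member over 24 arrays, each picked from all the probes compared, and are given as a description.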

How the data were processed

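Hippocampal RNA of 48 animals was hybridized to 24 two-color arrays on 3 slides. The deposited scanner files (Feature Extraction 10.7.3.1, per the file headers) hold linear intensities for 62976 spots, of which 3671 are control spots. The median signal and median background of each spot were used, with flags (unit other) for outlier, saturated and well-above-background spots. The authors' deposited value table holds log2 ratios of Cy5 over Cy3, with array medians between 0.00239 and 0.00889. Their scale and direction were checked against the scanner values. They lie closest to background-corrected, loess-normalized ratios with offset 50 and without between-array scaling (median absolute difference 0.00119, against 0.0572 with offset 0).

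Intensities were corrected with normexp (limma 3.58.1, R 4.3.3; offset 50 for p-values and 0 for fold changes, SE and intensities), loess-normalized within arrays with control and outlier spots at weight 0, and quantile-normalized between arrays, after the study's methods. A separate channel model with 6 groups of 8 animals (intraspot correlation 0.279 and 0.265 for the 2 offsets) was fitted to 56605 probes and adjusted by Benjamini-Hochberg over all of them, with 0.05 as the threshold; 77 probes missing on an array were fitted without that array's value. Accessions gave 34566 probes a gene symbol, and 24572 probes were dim, with a mean intensity under 50. A gene's main probe is its brightest. Probes of like intensity have a mean intensity of at least 50 and within a factor of 2 of the member's. The script was tested on simulated data. Alternatives changed 1 choice at a time, including leaving out each slide or array. The authors' log2 ratios and the scanner's processed signals were exceptions that changed several choices at once. The former differ in offset, in between-array scaling and in having no separate channels, the latter in background correction and within-array normalization. The slides held 2, 3 and 3 arrays of the first hour, 2, 3 and 3 of the fifth and 4, 2 and 2 of the ninth. Replicates are separate animals, and their number limits the precision. The members, the lists of related genes and the 3 most alike probes per member were chosen with earlier results of these data known. Python 3.11.15 with scipy 1.17.1 gave the permutation tests.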

Additional observations from a re-analysis of the deposited data

Results flagged for a closer look

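In 3 of the 72 groups of 8 animals (12 probes, 3 hours, 2 treatments), 1 animal lay farther from the rest than the 95% critical value of Dixon's test allows on the log2 scale, and chance gives about 1 such group in 20. Cort at the fifth hour had a control animal at 753.6 (replicate 1, slide 1), with the next at 1146 and a gap of 0.555 of the group's log2 range. The second probe of Penk at the ninth hour had a treated animal at 104.3 (replicate 3, slide 1), with the next at 138.4 and a gap of 0.541 of the log2 range. Tac1 at the ninth hour had a control animal at 2211 (replicate 8, slide 3), with the next at 1428 and a gap of 0.542 of the log2 range. Taken on the linear intensities printed here, the gaps of Cort and Penk lie below the critical value and that of Tac1 above it. None of these groups gave a difference that passed the test.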

How the results depend on the processing

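Of 760 values under alternatives other than leaving out an array, 722 kept their direction and side of the threshold, 14 lost a call or fell below a count, 9 gained one and 15 reversed; of 1200 values with 1 array left out, 1181 kept both, 12 lost, 6 gained and 1 reversed. Uncalled sign changes within 1 SE, 42 and 79 in these families, count as kept. At the first hour 1 member passed in place of 0: Cck as higher with Aquantile and with the authors' log2 ratios, and as lower with Feature Extraction's processed signals (-0.0941). At the fifth hour 2 passed in place of 3 with processed signals (Vip lost), with outlier spots kept and with log ratios per array (Cck lost in both), 1 passed with offset 0 for p-values, with a separate fit for each hour, without slide 1 and without slide 3, and 0 without slide 2; leaving out single arrays gave 1 to 3. At the ninth hour 2 passed in place of 0, Sst as higher and Cck, with Aquantile and with the authors' ratios (Cck higher) and with processed signals (Cck lower, -0.0908), and 1, Sst, with log ratios per array, with variances that follow intensity, with a separate fit and without slide 3; leaving out single arrays gave 0 to 1. From the first to the ninth hour of treated animals 1 member, Cort, passed without slide 2. Other settings gave the counts of the report in the other comparisons.

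Cck reversed to 0.176, 0.162 and 0.172 with Aquantile and to 0.183, 0.182 and 0.182 with the authors' ratios. Without slide 2, Sst at the first hour was -0.00246, Penk at the first 0.0512, Pdyn at the ninth -0.0629 and the Pdyn effect at the ninth hour minus that at the first -0.112. Without slide 1, Tac1 and Tac2 at the ninth hour were -0.139 and -0.0838, Npy from the first to the ninth hour in control animals -0.0764 and the Tac1 effect at the ninth hour minus that at the first -0.0892. Cort at the fifth hour was 0.142 without slide 3, and Pdyn at the ninth lay between -0.0372 (without ninth-hour replicate 5) and 0.0898 when single arrays were left out. The cause was not tested. Animals that share an array entered as a pair through the intraspot correlation, and the paired form, log ratios per array, moved the fifth-hour count from 3 to 2, with Cck at an adjusted p of 0.0553. No paired analysis was possible between hours because the replicate numbers follow the order of deposition. Limits are the 8 animals per group and the single dye orientation.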
